A study of Mus musculus with 29 samples.

Results

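In untreated RAW264.7 cells, 201 distal H3K4me1 regions each overlapped 5 or more distinct PU.1 intervals, and these PU.1-rich regions are described here. A distal region is an untreated H3K4me1 peak on chromosomes 1 to 19 or X that overlaps no untreated H3K4me3 peak. There were 43936 such regions among 65547 untreated H3K4me1 peaks, so the PU.1-rich regions made up 0.457% of them. They were chosen by measured values, the extent of the untreated H3K4me1 and H3K4me3 peaks and the number of PU.1 intervals. Width, PU.1 number and PU.1 density are therefore given as a description only.

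PU.1 is an ETS-family transcription factor that is needed for macrophage development and that binds together with other lineage factors at enhancers. H3K4me1 marks enhancers in general, H3K27ac marks active enhancers and promoters, and H3K4me3 marks promoters. H3K36me3 and H3K79me2 are laid down over transcribed gene bodies, H3K36me2 lies over gene bodies and between genes, and H3K27me3 is the mark of Polycomb repression.

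RAW264.7 is a mouse macrophage-like cell line transformed by the Abelson leukaemia virus, and a single line stands for macrophages throughout. The 29 samples comprised 25 histone mark libraries, 1 PU.1 library from untreated cells and 3 inputs, with 1 library for each mark and condition. All 7 marks were profiled in untreated cells and after 1 h and 4 h of LPS at 100 ng/ml. H3K4me1 and H3K36me2 were also profiled after a 1 h pre-treatment with flavopiridol, which inhibits CDK9 and other cyclin-dependent kinases and so halts transcript elongation, either alone or followed by LPS for 4 h. LPS is a bacterial cell wall component sensed by Toll-like receptor 4.

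The data were the authors' peak lists, so a mark is scored as called or not called over each base and the read depth of every library is unknown. No spread between cultures could be measured and no p-value is given. The lists of each mark differed in total length. H3K4me1 peaks covered 192.1 Mb in untreated cells, 176.3 Mb at LPS 1 h and 200.4 Mb at LPS 4 h, and 143.7 Mb after flavopiridol and 117.2 Mb after flavopiridol then LPS. H3K27ac peaks covered 83.6, 73.1 and 90.7 Mb in untreated cells, at LPS 1 h and at LPS 4 h. The part of depth and of peak calling in these totals was not tested.

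The PU.1-rich regions were wide. Their width had a lowest value of 4886 bp, a median of 12515 bp and a highest value of 40875 bp, against a median of 1726 bp for all untreated H3K4me1 peaks. PU.1 number had a median of 5 and a maximum of 13. There were 101 regions with exactly 5 intervals, 52 with 6 and 48 with 7 to 13. Just inside the threshold, the 101 regions with exactly 5 intervals had a median width of 10884 bp and 94.1% held H3K27ac. Just outside it, the 337 with exactly 4 had a median width of 8582 bp and 91.4% held it. No step separated these classes.

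Wide distal regions were mostly PU.1-rich at the far end of the range. They were 200 of the 3036 distal regions of at least 5 kb (6.59%), 151 of 516 of at least 10 kb (29.3%), 70 of 141 of at least 15 kb (49.6%) and 31 of 45 of at least 20 kb (68.9%). PU.1 number followed width among the 201 regions, with a Spearman rho of 0.609. Both values come from the same intervals, and a longer region has more room for PU.1.

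The density of PU.1 over the whole length of these regions was close to that of the other distal regions, which are mostly much narrower. Pooled over length, PU.1-rich regions held 0.417 PU.1 intervals per kb and the other distal regions 0.399. They carried 1198 of the 35186 PU.1 intervals in distal regions (3.40%) on 3.26% of the distal length. Among distal regions of 8 to 16 kb, median density was 0.479 per kb with 5 or more intervals. With 4, 3, 2 and 1 intervals it was 0.385, 0.318, 0.213 and 0.108. At similar width a higher density follows from the rule. Within the set, density was highest in the narrowest regions, with a lowest value of 0.17, a median of 0.44 and a highest value of 1.02 per kb.

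**Figure D1:**
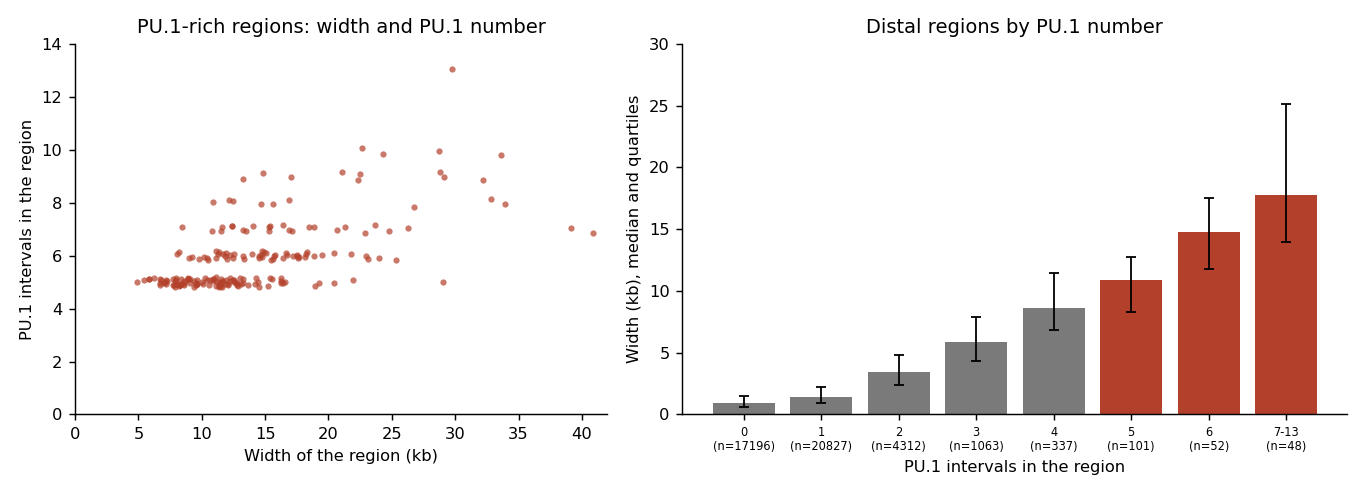
Left, each of the 201 PU.1-rich regions by width in kb and number of PU.1 intervals, with points shifted slightly up or down so that they do not overlap. Right, median width in kb of distal regions by PU.1 number, with whiskers at the quartiles; the classes with 5 or more are in red, and the medians climb without a step between 4 (8582 bp) and 5 (10884 bp).

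The PU.1 intervals inside these regions were of ordinary strength. Their fold enrichment, a deposited ratio of peak to background signal, had a median of 7.12 in PU.1-rich regions and of 7.66 in regions of the same range of width with 0 to 4 intervals. Most regions combined a strong interval with weak ones. The strongest interval of a PU.1-rich region had a median fold enrichment of 23.6 (range 6.12 to 63.2) and the weakest a median of 3.30. An interval of 20 or more was held by 125 of these regions.

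PU.1 was spread along the regions and not piled into a core. Neighbouring summits lay a median of 1822 bp apart (range 415 to 12270 bp, 997 gaps), with 20.0% of gaps under 1 kb and 5.82% of at least 5 kb. The stretch from the outermost summit on the left to that on the right took up a median of 79.96% of the region. The outer 20% at each end, which is 40% of the length, held 40.8% of the summits.

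The region with the most PU.1 was chr4:144839784-144869501 (mm9), with 13 intervals over 29718 bp. Its strongest interval had a fold enrichment of 26.7 and its weakest 2.87. H3K27ac covered 76.3% of it in untreated cells, 94.6% at LPS 1 h and 100% at LPS 4 h. H3K36me2 covered 88.8% of it in untreated cells, and H3K36me3, H3K79me2 and H3K27me3 were not called there. It was thus acetylated over more of its length after LPS, which was the less common course.

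A second region on the same chromosome, chr4:144556377-144590024, held 10 PU.1 intervals over 33648 bp. H3K27ac covered 88.1%, 71.4% and 78.8% of it in untreated cells, at LPS 1 h and at LPS 4 h. The region chr4:55807761-55832051 also held 10 and lost much of its acetylated length, with 91.6%, 50.4% and 49.6% at the same times. The remaining regions with 10 intervals were chr17:71465811-71494505 and chr12:85186226-85208888, and H3K27ac covered 39.7% and 33.9% of them at LPS 4 h, against 53.8% and 57.4% in untreated cells. In 4 of the 5 regions with the most PU.1, acetylated length was therefore shorter at LPS 4 h than in untreated cells.

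Some PU.1-rich regions lay near another, and most lay far apart. They lay on 20 chromosomes, with at most 24 on any of them. Another lay within 50 kb of 18 regions and within 500 kb of 56. Whether this is more than placement at random would give was not tested. The median distance to the nearest other PU.1-rich region was 2995 kb.

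Untreated PU.1-rich regions almost always overlapped peaks of H3K27ac and H3K36me2, and overlapped those of the gene-body marks H3K36me3 and H3K79me2 less often than regions as wide. The comparison set was the 3016 distal regions with 0 to 4 PU.1 intervals in the same range of width. Shares given at equal width were weighted to the width distribution of the PU.1-rich regions in 20 bins of width. Values given for the same range of width were not weighted. Above 20 kb only 14 comparison regions existed, and the thinnest bin held 2. A region carries a mark if it overlaps a peak by at least 1 bp. Intervals are 95% intervals that cover counting error only (Wilson for a share, a normal approximation within bins for a difference).

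H3K27ac was called in 195 of the 201 PU.1-rich regions (97.0%, interval 93.6 to 98.6%), against 89.3% of regions with fewer PU.1 at equal width and 24.0% of all distal regions with fewer PU.1. The difference was 7.73 percentage points (4.45 to 11.0). When regions with H3K36me3 or H3K79me2 were left out on both sides, the shares were 96.6% and 96.3%, a difference of 0.31 points (−3.04 to 3.65). By presence, the excess of H3K27ac was therefore not seen among regions without gene-body marks. Both shares there were so high that presence left little room for a difference. Covered length was not compared between the sets in these regions.

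H3K36me2 was called in 198 PU.1-rich regions (98.5%), against 95.1% at equal width and 51.6% of all distal regions with fewer PU.1. The difference at equal width was 3.41 points (1.08 to 5.74), and its interval reached below 0 under 4 other settings. These were 4 or more PU.1 intervals, with 1.10 points (−1.53 to 3.73), H3K36me2 over 20% of the region, with 2.77 (−0.64 to 6.18), regions without gene-body marks, with 1.198 (−0.59 to 2.99), and a limit on strength. With only H3K36me2 peaks of a −log10 q of 5 or more, 8.46% of PU.1-rich regions and 7.63% at equal width held the mark, a difference of 0.83 points (−3.66 to 5.31), and 9.02% of the peaks of that list pass this limit. The mean share of the region covered by H3K36me2 was 77.5% in PU.1-rich regions and 76.9% in regions with fewer PU.1. The high share with H3K36me2 thus rested on peaks of low deposited strength.

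Gene-body marks were less frequent in PU.1-rich regions. H3K79me2 was called in 49 PU.1-rich regions (24.4%), against 63.4% at equal width, a difference of −39.0 points (−46.0 to −32.0). H3K36me3 was called in 68 (33.8%), against 65.4%, a difference of −31.6 points (−39.5 to −23.7). With a cover of 20% of the region required, the H3K36me3 difference was −19.7 points (−28.5 to −11.0). Either mark was present in 75 PU.1-rich regions (37.3%), against 72.2% at equal width. PU.1-rich regions thus mostly lacked gene-body marks, and regions as wide with fewer PU.1 mostly carried them. Against all distal regions with fewer PU.1, which are much narrower, the direction turned, since only 12.1% of those carried H3K79me2 and 27.1% H3K36me3.

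H3K27me3 was called in 17 PU.1-rich regions (8.46%), against 6.13% at equal width, a difference of 2.32 points (−2.02 to 6.67). Of all distal regions with fewer PU.1, 17.8% held it. With 4 or more PU.1 intervals the difference at equal width was 4.65 points (1.77 to 7.52). The direction turned among regions without gene-body marks, where the shares were 12.6% and 22.2%, a difference of −9.60 points (−17.4 to −1.77). In the 17 regions H3K27me3 covered a mean of 17.2% of the length, and H3K27ac covered 33.7%. Of the 1198 PU.1 summits, 10 lay inside H3K27me3 (0.83%), against 2.47% of summits in regions of the same range of width and 8.67% in all distal regions with 0 to 4 intervals.

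**Figure D2:**
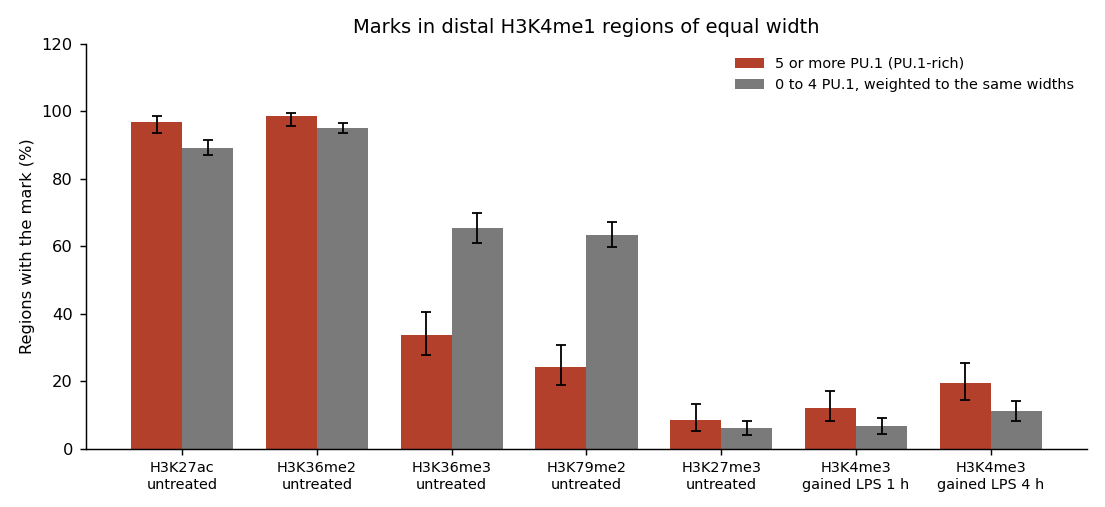
Share of regions with each mark, in percent, for the 201 PU.1-rich regions (red) and for regions with 0 to 4 PU.1 weighted to the same widths (grey); bars have 95% intervals for counting error. H3K79me2 stands at 24.4% against 63.4% and H3K27ac at 97.0% against 89.3%.

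In terms of combinations, H3K27ac with H3K36me2 and none of the other 3 marks was the most common state. It was found in 108 PU.1-rich regions (53.7%, interval 46.8 to 60.5%), against 20.9% at equal width and 10.8% of all distal regions. The combination of H3K27ac and H3K36me2 with both gene-body marks was found in 41 (20.4%), against 46.8% at equal width. A further 24 regions had H3K27ac, H3K36me2 and H3K36me3, 14 had H3K27ac, H3K36me2 and H3K27me3, and 5 had H3K27ac, H3K36me2 and H3K79me2. The other 9 regions were spread over 7 combinations.

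The shift in H3K27ac and gene-body marks was graded with PU.1 number and did not begin at 5. Among distal regions of 8 to 16 kb, H3K27ac was called in 33.3% of the 24 regions with no PU.1, in 64.7%, 90.7%, 91.8% and 95.9% of those with 1, 2, 3 and 4 intervals, and in 98.4% of the 122 with 5 or more. H3K79me2 ran the other way, with 83.3%, 79.0%, 50.8%, 40.3%, 32.5% and 20.5% for the same classes. H3K36me3 was at 75%, 65.5%, 56.5%, 46.9%, 39.6% and 32.0%. H3K36me2 was not graded in this way, with 100%, 97.5%, 92.7%, 93.0%, 94.7% and 99.2% for the same classes. Most of the rise in H3K27ac lay between 0 and 2 intervals, whereas H3K79me2 went on falling up to 5 or more. Median width also grew within this window, with 11617 bp for regions with 5 or more intervals and 9414 bp for those without PU.1.

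**Figure D3:**
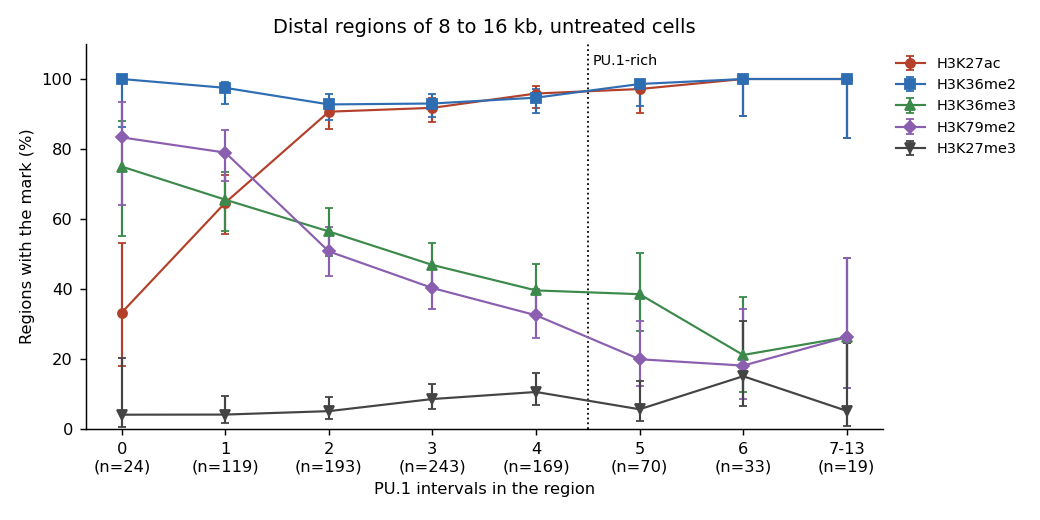
Share of distal regions of 8 to 16 kb with each mark in untreated cells, in percent, by number of PU.1 intervals; bars are 95% Wilson intervals, and classes right of the dotted line are PU.1-rich. H3K27ac climbs early (33.3%, 64.7% and 90.7% at 0, 1 and 2 intervals) and H3K79me2 declines over the classes below 5 and stays low above it.

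H3K27ac also lay over more of each PU.1-rich region. Its mean covered share in untreated cells was 56.5% ± 26.4 (SD over 201 regions, which are not replicates), against 33.0% at equal width. The lowest, median and highest shares were 0%, 58.3% and 100%, so the set ran from regions without H3K27ac to fully acetylated ones. In 46 regions H3K27ac covered at least 80% of the length. H3K79me2 covered a mean of 15.2% of PU.1-rich regions, against 52.2% at equal width.

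Acetylation was centred on PU.1. Within 250 bp of a PU.1 summit, 74.7% of positions in PU.1-rich regions lay in untreated H3K27ac, and at 2 to 3 kb from the nearest summit 31.0% did. In regions of the same range of width with 1 to 4 intervals the same values were 59.5% and 15.0%. At the summits themselves, 891 of 1198 lay in H3K27ac (74.4%). In regions with 0 to 4 intervals, 59.4% of summits did within the same range of width, and 30.9% over all widths.

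H3K36me2 had the opposite profile. It covered 71.3% of positions within 250 bp of a summit and 88.1% at 2 to 3 kb in PU.1-rich regions, and 62.0% and 75.2% in regions with 1 to 4 intervals. The dip of H3K36me2 and the peak of H3K27ac at PU.1 were thus shared by both sets.

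After LPS, almost every PU.1-rich region kept some H3K27ac. It was called in all 3 lists in 188 regions (93.5%), against 64.2% of regions of the same range of width with fewer PU.1 and 15.4% of all distal regions. It was called in untreated cells and at LPS 4 h but not 1 h in 4, in untreated cells and at LPS 1 h but not 4 h in 1, and in untreated cells only in 2. It appeared at both LPS times without being called in untreated cells in 2, at LPS 4 h only in 1, and in none of the lists in 3. The value of 64.2% was not weighted to width. At equal width, 89.3% of regions with fewer PU.1 held untreated H3K27ac. Of those with it, 90.3% kept it at LPS 1 h and 96.4% at LPS 4 h.

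At LPS 1 h, 189 of the 195 regions with untreated H3K27ac kept it (96.9%, interval 93.5 to 98.6%), against 90.3% at equal width, a difference of 6.63 points (3.24 to 10.0). Over all distal regions with untreated H3K27ac, 32.5% lost it. With regions matched on the length of untreated H3K27ac in place of region width, the difference was 0.60 points (−1.98 to 3.18). Regions with as much H3K27ac at the start thus kept it as often, within counting error.

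At LPS 4 h, 192 of the 195 kept H3K27ac (98.5%), against 96.4% at equal width, a difference of 2.08 points (−0.11 to 4.27), and 23.3% of all distal regions with the mark lost it. Of the 6 regions without untreated H3K27ac, 2 had it at LPS 1 h and 3 at LPS 4 h, where 4.61% and 12.4% of all distal regions without the mark gained it. At equal width 15.7% and 32.3% gained it, and 6 regions are too few to show a difference at either time.

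Presence hid a loss of acetylated length. The total length of H3K27ac in PU.1-rich regions was 1653.7 kb in untreated cells, 1259.1 kb at LPS 1 h (76.1% of the untreated length) and 1461.0 kb at LPS 4 h (88.3%). In regions of the same range of width with fewer PU.1, the length was 77.7% of the untreated length at LPS 1 h and 98.2% at LPS 4 h, and over all distal regions 76.0% and 105.1%. The deficit at 4 h was thus larger in PU.1-rich regions, whereas at 1 h all sets stood near the same value.

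The acetylated share of a region was lower at LPS 1 h than in untreated cells by more than 5 percentage points in 125 PU.1-rich regions, higher in 28 and within 5 points in 48. At LPS 4 h against untreated cells it was lower in 110, higher in 54 and within 5 points in 37. Between the LPS times it was higher at 4 h than at 1 h in 101 regions and lower in 36. In the 3016 regions of the same range of width with fewer PU.1, it was lower than in untreated cells in 1431 and higher in 521 at LPS 1 h. At LPS 4 h it was lower in 1132 of them and higher in 933. Between the LPS times it was higher at 4 h in 1335 of them and lower in 460. Against untreated cells, lower shares thus outnumbered higher ones at both LPS times in both sets. These counts are separate tallies and do not follow single regions through the course.

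PU.1-rich regions kept slightly more of their untreated H3K27ac length than regions with fewer PU.1, and less of their H3K27ac after LPS was new. At LPS 1 h, 69.2% of the untreated length was acetylated in PU.1-rich regions and 9.11% of the LPS 1 h length was new. At LPS 4 h, 73.9% of the untreated H3K27ac length in PU.1-rich regions was acetylated, and 16.3% of the LPS 4 h length was new. In regions of the same range of width with fewer PU.1, 63.9% was acetylated and 17.7% was new at LPS 1 h, and 70.8% and 27.9% at LPS 4 h.

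The comparison of these changes turned with the acetylated share at the start. The mean change in acetylated share at LPS 4 h was −6.81 points in PU.1-rich regions and 1.62 points in regions with fewer PU.1 at equal width. Against regions weighted to the same untreated acetylated share it was −6.81 and −8.65 points, with an SD over PU.1-rich regions of 24.7 points. At LPS 1 h the change was −13.5 points, against −6.48 points at equal width and −15.1 points at equal starting share. At equal starting share the sets thus differed by less than 2 points at both times.

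**Figure D4:**
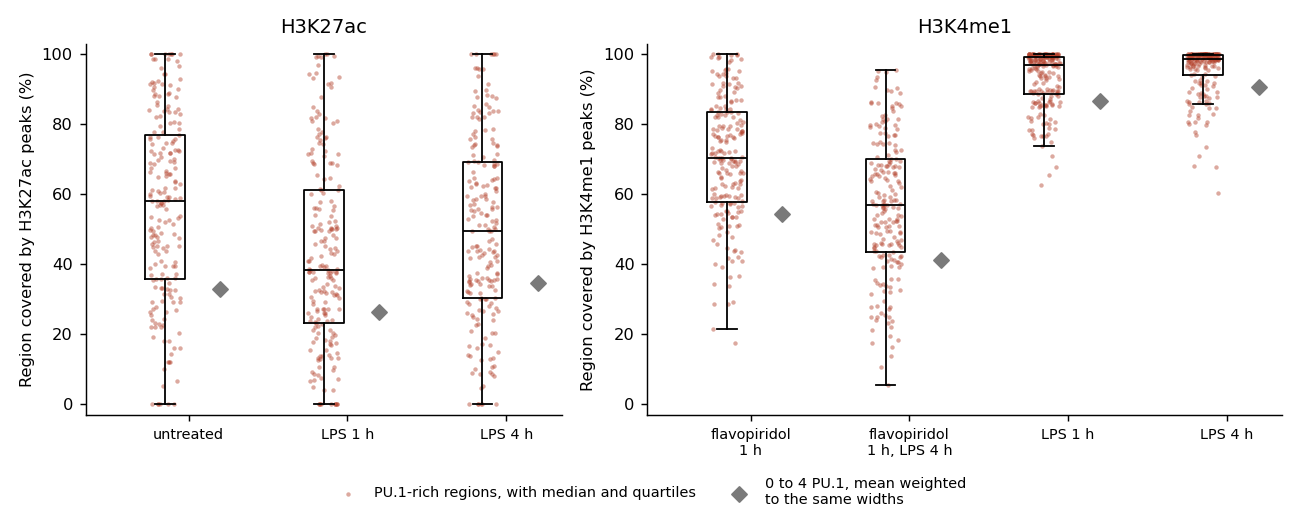
Share of each region covered by H3K27ac (left) and H3K4me1 (right) peaks, in percent; red points are the 201 PU.1-rich regions with median and quartiles as boxes and standard boxplot whiskers, and grey diamonds are means of regions with 0 to 4 PU.1 weighted to the same widths. Mean H3K27ac cover is 56.5%, 43.0% and 49.7% through the time course, and H3K4me1 cover is lowest after flavopiridol then LPS.

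Presence of H3K27ac changed in few regions. Only 2 lost H3K27ac at both LPS times. The region chr11:21479533-21487588 held 6 PU.1 intervals, and H3K27ac covered 40.7% of it in untreated cells and none of it at 1 h or 4 h, while H3K36me2 covered 100% at all 3 times. In chr6:89211262-89220353, H3K27ac covered 19.3% in untreated cells and none after LPS. H3K27me3 covered 73.8% of that region in untreated cells, 53.5% at LPS 1 h and 55.9% at LPS 4 h, the highest H3K27me3 cover among the 201 in each of these lists.

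In 3 regions H3K27ac was gained by 4 h. The longest gain was in chr4:63744599-63755549, with 0% in untreated cells, 71.4% at LPS 1 h and 83.2% at LPS 4 h, although H3K36me2 covered 100% of it from the start. In chr5:54461289-54469636 the values were 0%, 20.3% and 44.5%. H3K79me2 there covered 35.4% in untreated cells, 29.3% at LPS 1 h and 63.8% at LPS 4 h, so a gene-body mark was longer at 4 h in the same region. The densest region, chr3:94183033-94187918 with 1.02 PU.1 intervals per kb, gained H3K27ac over 8.80% of its length at 4 h only and had no H3K36me2 in any list.

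The other dense regions were acetylated from the start. H3K27ac covered 63.5% of chr5:5332891-5338345 and 90.8% of chr4:47270917-47276716 in untreated cells. The widest regions differed from each other. In chr3:105553626-105594500, 40875 bp wide with 7 PU.1 intervals, H3K79me2 covered 100% in untreated cells and H3K27ac 12.2%. In chr9:47533621-47567542, with 8 intervals, H3K27ac covered 100%, 74.4% and 59.6% in untreated cells, at LPS 1 h and at LPS 4 h. In chr5:53864862-53904000, with 7, it covered 39.5%, 36.2% and 58.8%.

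Short H3K4me3 peaks appeared in some of these regions after LPS. The regions had no H3K4me3 in untreated cells by the rule. At LPS 1 h, 24 of 201 held an H3K4me3 peak (11.9%), against 6.79% at equal width and 1.83% of all distal regions, a difference of 5.15 points (0.06 to 10.2). At LPS 4 h, 39 did (19.4%), against 11.1% and 3.1%, a difference of 8.30 points (2.07 to 14.5). Counting only PU.1 intervals with a −log10 q of 5 or more, these differences were 0.98 points (−4.54 to 6.50) and 6.85 points (−0.52 to 14.2). With 6 or more PU.1 intervals they were 3.81 (−3.42 to 11.0) and 6.41 (−3.43 to 16.2). At LPS 4 h the interval also reached below 0 without gene-body marks, with 5.98 (−2.16 to 14.1). At LPS 1 h it also did so with PU.1 counted by summit, with 10 width bins and against regions with 1 to 4 PU.1. Of the PU.1 summits in PU.1-rich regions, 0.92% lay inside H3K4me3 at LPS 1 h and 2.42% at LPS 4 h. In regions of the same range of width with 0 to 4 intervals, 1.43% and 2.72% of summits did. The excess per region was thus not seen per summit.

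The H3K4me3 peaks were short beside those of the whole H3K4me3 lists. Their median width was 442 bp at LPS 1 h and 491 bp at LPS 4 h, against medians of 1489 bp and 1494 bp over the whole lists. At 1 h, 25 of 25 of them overlapped untreated H3K27ac, and at 4 h 47 of 49 did. Untreated H3K27ac was called in 97.0% of PU.1-rich regions and covered a mean of 56.5% of their length. The overlap was not compared with that of H3K4me3 peaks in other regions. There were 15 PU.1-rich regions with H3K4me3 at both LPS times and 48 with it at either.

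H3K4me1 itself was called over most of each region after LPS. It covered at least 80% of the region in 184 PU.1-rich regions at LPS 1 h (91.5%), against 71.9% at equal width and 58.0% of all distal regions. At LPS 4 h it did so in 193 (96.0%), against 84.2% and 68.8%. Counting only peaks with a −log10 q of 5 or more, the shares were 45.3% and 38.9% at equal width at LPS 1 h, a difference of 6.38 points (−2.46 to 15.2), and 68.2% and 52.0% at LPS 4 h, a difference of 16.1 points (7.23 to 25.05). At 50% of the region, 100% of PU.1-rich regions passed at both times, against 98.4% and 99.2% at equal width. The mean covered share was 93.0% and 95.4% at the 2 times. The untreated domain was a single H3K4me1 peak by construction. After LPS, 142 regions overlapped a single H3K4me1 peak at 1 h and 164 did at 4 h.

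After flavopiridol, H3K4me1 was called over less of the domains, and PU.1-rich regions kept more of it than regions as wide. With flavopiridol alone it covered at least 80% of 61 PU.1-rich regions (30.3%, interval 24.4 to 37.0%), against 14.9% at equal width, a difference of 15.4 points (7.65 to 23.2). Over all distal regions 26.2% reached this share. With flavopiridol then LPS, 27 did (13.4%), against 5.004% at equal width and 15.8% of all distal regions, a difference of 8.43 points (3.54 to 13.3). The difference after flavopiridol alone was 18.7 points (9.39 to 28.0) among regions without gene-body marks.

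These 2 lists were also the weakest H3K4me1 lists. Their median −log10 q, as the authors deposited it, was 2.25 after flavopiridol and 1.55 after flavopiridol then LPS, against 5.57 in untreated cells and 5.40 at LPS 4 h. Counting only peaks with a −log10 q of 5 or more, 2 and 0 of the 201 regions reached 80%, and the differences were 0.15 and −0.0053 points. How far the treatment and how far depth or enrichment lowered these lists cannot be told apart.

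The H3K4me1 share fell by more than 5 points in 185 of 201 PU.1-rich regions with flavopiridol against untreated cells, with a median change of −29.5 points, and no region could rise. With flavopiridol then LPS against LPS 4 h alone, 193 were lower and 1 higher, with a median change of −38.1 points. In regions of the same range of width with fewer PU.1, 2812 of 3016 fell with flavopiridol, with a median change of −42.3 points. With flavopiridol then LPS, 2847 of these were lower and 31 higher, with a median change of −44.9 points. A fall was thus about as frequent in both sets. The mean covered share in PU.1-rich regions was 70.1% ± 17.7 with flavopiridol and 56.6% ± 19.7 with flavopiridol then LPS (SD over 201 regions). At equal width it was 54.4% and 41.2%. All 201 PU.1-rich regions retained some H3K4me1 in both lists, with lowest shares of 17.5% and 5.55%.

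More of the domains overlapped several H3K4me1 peaks in the flavopiridol lists. With flavopiridol 52 regions overlapped 1 H3K4me1 peak, which need not cover the whole region, and 70 overlapped 3 or more. With flavopiridol then LPS these counts were 31 and 83, against 164 and 6 with LPS 4 h alone. The part of list strength in these counts was not tested, and they were not compared with regions with fewer PU.1.

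H3K4me1 cover after flavopiridol was highest next to PU.1 and lower with distance from it. With flavopiridol, 89.8% of positions within 250 bp of a PU.1 summit were in H3K4me1, 71.6% at 500 to 1000 bp and 43.9% at 2 to 3 kb, and 48.8% beyond 4 kb. With flavopiridol then LPS the same distances had 78.8%, 57.3% and 27.8%, whereas with LPS 4 h alone they had 99.1%, 96.7% and 89.9%. Regions with 1 to 4 intervals followed the same slope, with 84.6%, 64.2% and 37.8% after flavopiridol. At equal distance from a summit, PU.1-rich regions were thus higher by several points.

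The slope was present both inside the domains and near their ends. In the inner part of PU.1-rich regions, 92.3% of positions within 250 bp of a summit and 49.4% of those at least 1500 bp away kept H3K4me1 with flavopiridol. In the outer 20% at each end these shares were 86.0% and 40.1%.

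**Figure D5:**
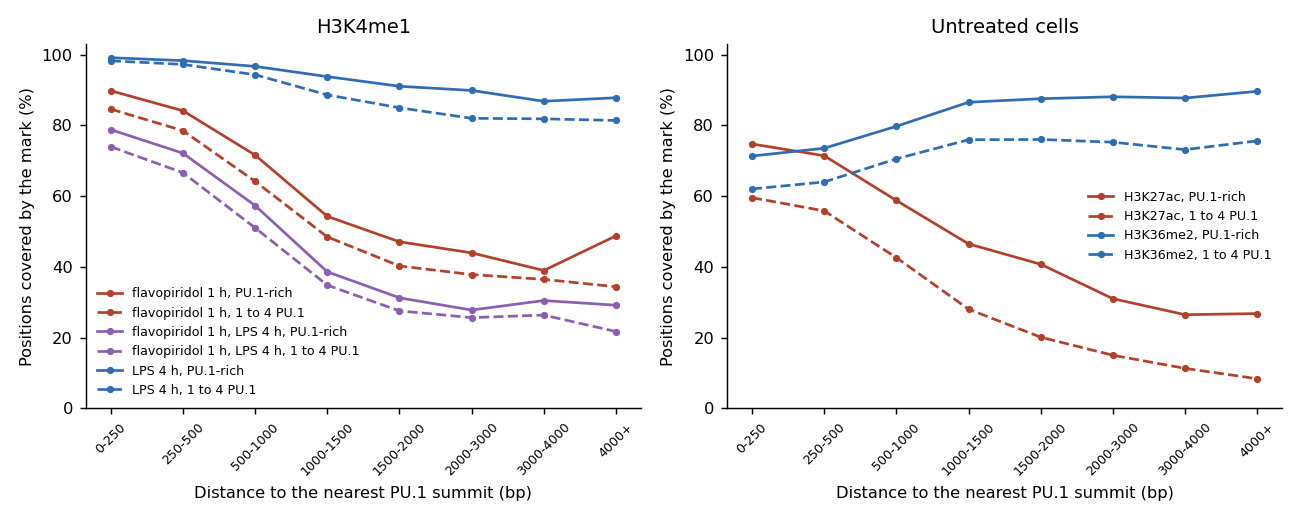
Share of positions covered by a mark, in percent, by distance in bp to the nearest PU.1 summit, for PU.1-rich regions (solid) and regions with 1 to 4 PU.1 of the same range of width (dashed). Left, H3K4me1 after flavopiridol falls with distance (89.8% within 250 bp, 43.9% at 2 to 3 kb) and stays high with LPS 4 h alone; right, in untreated cells H3K27ac falls and H3K36me2 rises with distance.

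The 3 regions with the lowest H3K4me1 share after flavopiridol had less untreated H3K27ac than most of the set. In chr13:37595128-37607188, H3K4me1 covered 17.5% with flavopiridol and 19.6% with flavopiridol then LPS, and H3K36me2 covered none of it with flavopiridol, against 66.1% in untreated cells. In chr15:53065321-53074200, H3K4me1 covered 21.5% with flavopiridol and 5.55% with flavopiridol then LPS. In chr1:172911412-172919485 it covered 28.7% and 27.9%. Untreated H3K27ac covered 38.9%, 22.1% and 16.1% of these regions, below the median of the set. In the 6 PU.1-rich regions without untreated H3K27ac, however, H3K4me1 covered from 42.2% to 99.9% with flavopiridol. A link between untreated H3K27ac and H3K4me1 after flavopiridol was not tested over the set.

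H3K36me2 was still called in most PU.1-rich regions after flavopiridol, in lists of low strength. The median −log10 q of the H3K36me2 lists was 1.19 with flavopiridol and 0.99 with flavopiridol then LPS, against 1.89 in untreated cells and 3.45 with LPS 4 h alone. Fewer than 1% of peaks in either flavopiridol list reached a −log10 q of 5, so treatment and list strength cannot be told apart here either. Of the 198 PU.1-rich regions with untreated H3K36me2, 188 kept it with flavopiridol, and 15.7% of all distal regions with the mark lost it. With flavopiridol then LPS 182 kept it, and 24.0% of all distal regions lost it. At equal width 97.2% and 95.6% kept it, against 94.9% and 91.9% of PU.1-rich regions, and the intervals of both differences include 0. The mean covered share in PU.1-rich regions was 74.1% with flavopiridol and 77.5% in untreated cells, and 61.8% with flavopiridol then LPS and 85.8% with LPS 4 h alone.

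Between these lists, H3K36me2 cover changed in different directions within the set. In the 75 regions with a gene-body mark its mean covered share was 83.2% ± 20.7 with flavopiridol and 71.4% ± 28.0 in untreated cells. In the 126 regions without one it was 68.6% ± 32.2 with flavopiridol and 81.1% ± 22.6 in untreated cells (SD over regions). In the 17 regions with H3K27me3 it was 31.6% ± 29.4 with flavopiridol and 60.5% ± 29.9 in untreated cells. The part of list strength in these differences was not tested. H3K4me1 did not divide in this way, with 70.0% and 70.2% covered after flavopiridol in regions with and without a gene-body mark.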

How the data were processed

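ChIP-seq peak lists of RAW264.7 cells were used, with 1 library per mark and condition. Per the submitters' processing notes, the tools were Bowtie 1.0.1 with the build mm9, and MACS2. Settings, control libraries, read totals and the MACS2 version are not stated in the sources used. The authors deposited 1 fold enrichment (a ratio over background), 1 −log10 p and 1 −log10 q per peak. The deposited score was not used for any result. Histone marks come as broad peaks and PU.1 as narrow peaks with a summit each, in 107962 lines and 99565 distinct intervals on chromosomes 1 to 19 and X.

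Peaks overlapped if they shared at least 1 bp. The share of a region under a mark was the covered length of the merged peaks, and distance profiles used positions every 50 bp. Regions with 0 to 4 PU.1 intervals were weighted to the widths of the 201 regions by direct standardisation over 20 bins at quantiles of width, with no random draws. Shares have 95% Wilson intervals, and intervals of differences combine the binomial variances of the bins. Regions of 1 library are not replicates. Overlap counting and standardisation were tested on simulated data.

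The regions, the thresholds and the alternatives were chosen with earlier results of these data known. Named regions were the 5 with the most PU.1, the 3 widest, the 3 densest, up to 3 with the longest untreated H3K27ac lost at both LPS times (2 existed), the 3 with the longest H3K27ac gained at LPS 4 h, and the 3 with the lowest H3K4me1 share after flavopiridol. Ties went to the wider region. Results were recomputed under those of 12 other settings that apply to them, and under 2 more added after the data were seen. Coordinates are 1-based mm9 positions, and neither genes nor sequences of mm9 were used here. Python 3.11.15, numpy 2.4.6, pandas 2.3.3, scipy 1.17.1 and matplotlib 3.10.9 were used.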

Additional observations from a re-analysis of the deposited data

How the results depend on the processing

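Differences are PU.1-rich regions minus regions with fewer PU.1, in percentage points. There were 538 regions with 4 or more PU.1 intervals and 100 with 6 or more (95 of these could be compared at equal width), and 126 without H3K36me3 or H3K79me2 (119 comparable), an alternative chosen after seeing the data, as was the limit to regions under 20 kb. The H3K27ac difference of 7.73 was 11.1 with 4 or more intervals, 30.9 when H3K27ac had to cover 20% of the region, 13.8 with only peaks whose −log10 q was 5 or more and 0.31 without gene-body marks. The H3K36me2 difference of 3.41 was 0.83 with the −log10 q limit. The H3K36me3 difference of −31.6 was −19.7 with 20% cover, −23.1 with the −log10 q limit and −40.5 with 6 or more intervals, and the H3K79me2 difference of −39.0 was −30.0 with 4 or more. For H3K27ac kept at LPS 1 h, 6.63 became 11.6 with 20% cover, 11.0 with the −log10 q limit and 0.60 when matched on H3K27ac length, and at LPS 4 h 2.08 became 6.37 with 20% cover. The difference for H3K27ac gained at LPS 4 h was 17.7 and turned to −3.82 with 4 or more intervals and −1.70 without gene-body marks, all within counting error. The H3K4me1 difference after flavopiridol, 15.4, was 0.15 with the −log10 q limit and 30.8 when 50% of the region counted, and after flavopiridol then LPS, 8.43 was −0.0053 and 28.6. Where no reason is given by the alternative's own construction, the cause was not tested. The −log10 q limit keeps 12.8% and 4.02% of the flavopiridol lists, against 54.4% of the untreated H3K4me1 list, so it does not test the same lists. A further 77 values of these results under other settings stayed close to those reported (for differences, within their counting error). Merging H3K4me1 peaks within 1 kb changed nothing, since the smallest gap between them was 1405 bp. No paired analysis was possible because each mark and condition has 1 library.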
